A study of Homo sapiens with 12 samples.

Results

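The comparison described here set ribosome footprints of neurons homozygous for the Nterm allele of LLPH against footprints of wild-type neurons. It used the 6 footprint libraries of a series of 12, 3 labelled Nterm/Nterm and 3 labelled wt/wt in their titles. Both genotypes were H1 human embryonic stem cells turned into induced neurons by overexpression of the transcription factor Ngn2 and grown without added glia to day 14. All cultures received doxycycline at 2 µg/mL, which switches the Ngn2 transgene on, and cytosine arabinoside at 4 µM, which acts against dividing cells, in medium changed fully on day 5 and partly on day 10. Cells were harvested in cycloheximide at 100 µg/mL, which holds ribosomes on mRNA. The sources used here do not give what the Nterm allele changes in LLPH, nor whether replicates came from separate cultures or clones. A p-value here therefore measures no more than the spread among libraries, which may be technical. For all 6 footprint samples the tag for genotype contradicts the title. Titles and column names were followed, and with the tag every footprint sign below would reverse. In the RNA samples the tag differed from the title in 0 cases, and the RNA libraries ran the way the footprint titles say: PCDHA10 RNA stood at 51.7 CPM (counts scaled to 1000000 per library) in wt/wt and 0.762 CPM in Nterm/Nterm, the log2 change of TCEAL5 RNA was 7.55 (Nterm/Nterm minus wt/wt), and 98.2% of called footprint changes had the sign of the RNA change.

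Ribosome profiling sequences the mRNA pieces that ribosomes shield from RNase, so the footprint count of a gene reflects both how much of its mRNA is present and how many ribosomes sit on it. LLPH encodes a small nucleolar protein related to a factor first studied in sensory neurons of the sea slug Aplysia, where it was tied to lasting changes at synapses. Neurons made with Ngn2 are mostly excitatory, and cultures of this kind can hold cells that did not become neurons.

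The footprint libraries held between 12652833 and 16356419 counts. Of 19972 transcripts in the table, 13566 passed the filter on low counts and were tested, and these held 99.9% of the footprint counts. The other 6406 were not tested, 2440 of them because no footprint was counted in any of the 6 libraries. A symbol was known for 10739 of the tested transcripts. In the libraries as labelled, the 24 pan-neuronal markers were all tested and took 1.39% ± 0.133 of wt/wt footprints and 1.61% ± 0.0194 of Nterm/Nterm footprints (SD, n = 3). Of 18 glial markers, 12 had no named transcript, GFAP, AQP4 and OLIG2 among them, and were not analysed here. The first principal component separated the genotypes with 58.2% of the variance, and along it wt/wt library 3 lay nearest to the Nterm/Nterm libraries and Nterm/Nterm library 3 farthest from the wt/wt libraries.

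Nterm/Nterm neurons had fewer footprints on 29 of 31 tested genes of the extracellular matrix and 20 of 30 of the interferon response. They also had fewer on 7 of 13 tested genes of antigen presentation and 10 of 28 of the lysosome. They had more on 9 of 24 genes of cholesterol synthesis, 8 of 53 of the neuronal cytoskeleton and 10 of 49 of the synaptic vesicle, where 2 had fewer, and without wt/wt library 1 these 3 counts were 4, 0 and 1. Genes of the translation machinery, the mitochondria and the proteasome were nearly all left uncalled. At an adjusted p under 0.05 (edgeR quasi-likelihood test with Benjamini-Hochberg adjustment, two-sided), 13.3% of the tested transcripts were called. Called higher were 591 transcripts, or 4.36%, and called lower 1209, or 8.91%, which makes 2.05 lower calls for each higher one. The median log2 change (Nterm/Nterm minus wt/wt) was 0.32 among the higher calls, -0.46 among the lower calls and 0.01 over all tested transcripts. Libraries were scaled to a common total, so every change is relative to the other transcripts of a library. A change shared by all transcripts would not be seen. Changes of more than 2-fold were 19 higher and 131 lower calls, together 1.11% of the transcripts. Of these 150 calls, 33 had a symbol, and those without one are not described here. The 3 libraries of each genotype did not overlap for 14.8% of transcripts in the higher and 15.9% in the lower direction, and 1725 of the 1800 called transcripts were among these.

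The lower calls outnumbered the higher ones most among transcripts with few footprints. The transcripts were divided by CPM, which is not corrected for transcript length, into 4 groups of equal size. In the group from 0.534 to 10.5 CPM, 91 transcripts were higher and 351 lower, with a median size of the called changes of 0.77 on the log2 scale. In the group from 83.0 to 5003 CPM, 209 were higher and 234 lower, with a median size of 0.29. The share of transcripts called was 13.0%, 14.0%, 13.0% and 13.1% from the lowest to the highest group, while the median standard error (SE) of the log2 change fell from 0.19 to 0.07. The median change of all transcripts in a group, called or not, moved with level too. It was -0.08, -0.01, 0.01 and 0.05 from the lowest to the highest group. The smallest change called anywhere was 0.19. In the plot of change against footprint level this appears as a funnel, narrow at high levels, with a handful of genes far outside it. Leaving out wt/wt library 1, wt/wt library 2 or Nterm/Nterm library 3 lowered the number of calls to 954, 978 and 965. The higher calls were then 168, 258 and 266, and 373 without Nterm/Nterm library 1.

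**Figure D1:**
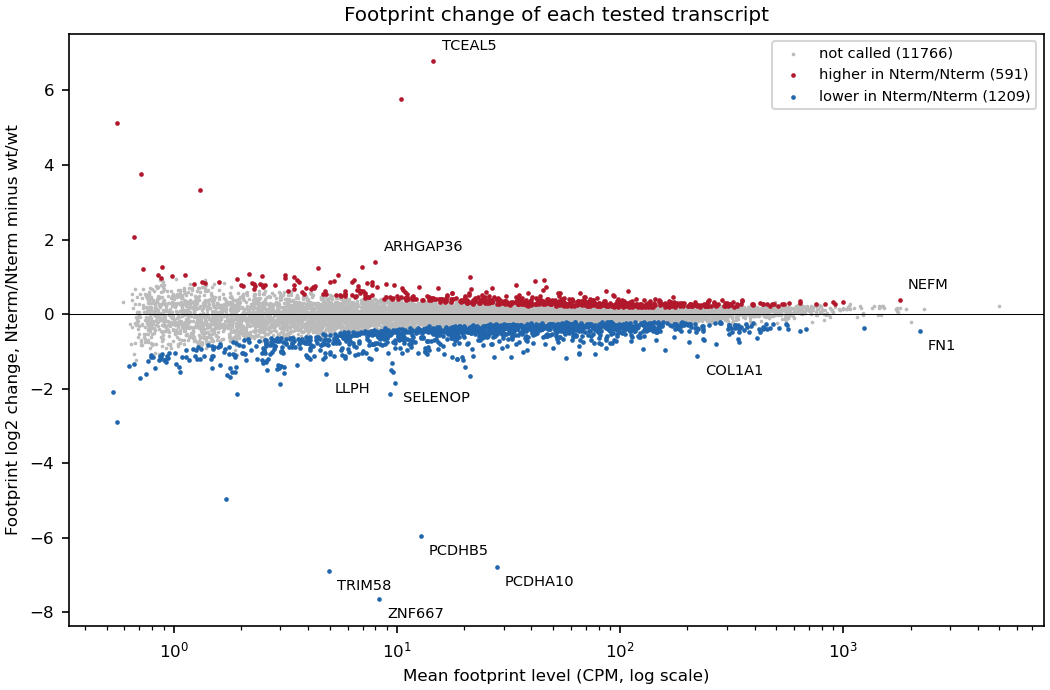
Log2 change in footprints (vertical axis, Nterm/Nterm minus wt/wt) against mean footprint level of the 6 libraries (horizontal axis, CPM, log scale) for each of the 13566 tested transcripts, with 591 called higher in red, 1209 called lower in blue and the rest in grey. The called changes narrow toward high levels, and of the labelled genes ZNF667, TRIM58, PCDHA10, PCDHB5 and TCEAL5 lie beyond 5 on the log2 scale.

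LLPH itself had fewer footprints in Nterm/Nterm. Its level was 6.72, 7.92 and 7.07 CPM in the wt/wt libraries and 3.12, 1.71 and 2.37 CPM in the Nterm/Nterm libraries, a log2 change of -1.60 ± 0.19 (SE, adjusted p = 1.77e-05). The lowest wt/wt library stood above the highest Nterm/Nterm library, and the call held in each of the 6 fits that left out 1 library (highest adjusted p = 5.89e-04).

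Among the genes that were close to absent from 1 genotype, the clustered protocadherin PCDHA10, a neuronal adhesion molecule, had 56.2, 52.5 and 57.1 CPM in wt/wt and 0.560, 0.544 and 0.395 CPM in Nterm/Nterm. The ratio of its summed footprints was 112, with a 95% counting interval of 72.1 to 183 that covers counting error only. TCEAL5, which belongs to the TCEAL and BEX family, went the other way, from 0.305, 0.293 and 0.144 CPM to 34.1, 24.3 and 27.9 CPM. Its ratio was 115, with an interval of 63.9 to 230. Of the 12 tested members of the TCEAL and BEX family, BEX1 was the one other member called, at 0.29 ± 0.07 (SE, adjusted p = 0.0138), and the remaining members lay between -0.02 and 0.19. BEX1 was not called without Nterm/Nterm library 1, wt/wt library 1 or wt/wt library 2. Of the tested members, TCEAL5 was the one near absent from wt/wt.

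By rule, the 20 largest decreases and the 20 largest increases were taken among named transcripts with at least 10 CPM in the higher genotype and with genotypes that did not overlap. The decreases ran from -7.64 to -1.07 on the log2 scale. All 20 were also called lower in RNA and all 20 kept their call in every fit that left out 1 footprint library. SELENOP, the selenium carrier of plasma, had 16.6, 16.5 and 12.8 CPM in wt/wt and 4.64, 4.66 and 3.62 CPM in Nterm/Nterm (-1.84 ± 0.15, adjusted p = 1.87e-07). It was the 1 called member of 17 tested selenoproteins, whose median was 0.02, and the next lowest, SELENOM, stood at -0.17 (adjusted p = 0.440).

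COL9A3, a chain of the cartilage collagen IX, had 29.8, 38.4 and 27.9 CPM in wt/wt and 10.6, 12.5 and 7.50 CPM in Nterm/Nterm. Its decrease was -1.67 ± 0.15 (adjusted p = 4.01e-07). Others on the list were the matrix genes COL22A1 (-1.21), FBLN2 (-1.21), MXRA8 (-1.16), MATN3 (-1.15), COL4A6 (-1.15) and LAMA1 (-1.08). The basement membrane gene FREM2 had 100.0, 69.4 and 69.1 CPM in wt/wt and 32.2, 43.6 and 29.7 CPM in Nterm/Nterm (-1.18 ± 0.13, adjusted p = 9.50e-06). LRP2, the endocytic receptor megalin, had 39.4, 38.6 and 34.9 against 12.6, 20.3 and 17.6 CPM (-1.16 ± 0.12, adjusted p = 3.93e-06). SDHAF4, which helps assemble succinate dehydrogenase of the respiratory chain, had 27.8, 28.4 and 26.8 against 12.3, 10.3 and 12.6 CPM (-1.23 ± 0.10, adjusted p = 1.92e-07). The succinate dehydrogenase subunits that it serves were not called: SDHA stood at -0.05, SDHB at 0.01, SDHC at 0.00 and SDHD at 0.19.

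The 20 largest increases ran from 0.59 to 6.80, and 18 of them were called higher in RNA too. ARHGAP36, an inhibitor of protein kinase A, had 3.89, 4.87 and 4.33 CPM in wt/wt and 9.13, 11.6 and 14.1 CPM in Nterm/Nterm (1.41 ± 0.17, adjusted p = 1.52e-05). PRLHR, the receptor for prolactin-releasing peptide, had 28.3, 31.0 and 35.9 against 50.7, 58.3 and 69.5 CPM (0.91 ± 0.10, adjusted p = 1.03e-05). In both, the highest wt/wt library lay below the lowest Nterm/Nterm library, which the rule for this list required. SSTR2, a somatostatin receptor, had 18.6, 20.6 and 22.1 against 32.4, 30.2 and 36.6 CPM (0.70 ± 0.10, adjusted p = 8.94e-05). The NMDA receptor subunit gene GRIN3A rose by 0.69 ± 0.13 (adjusted p = 0.00129), the GABA-A receptor subunit gene GABRG3 by 0.79 ± 0.14 (adjusted p = 0.00103), the teneurin TENM2 by 0.63 ± 0.09 (adjusted p = 1.20e-04) and the ephrin receptor EPHA4 by 0.61 ± 0.10 (adjusted p = 2.77e-04). Of the 20, VWC2 alone lost its call in a fit that left out 1 library (adjusted p = 0.0575 without wt/wt library 1). The plot of single genes by library shows 12 of the genes described here and in the sections on immune genes.

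**Figure D2:**
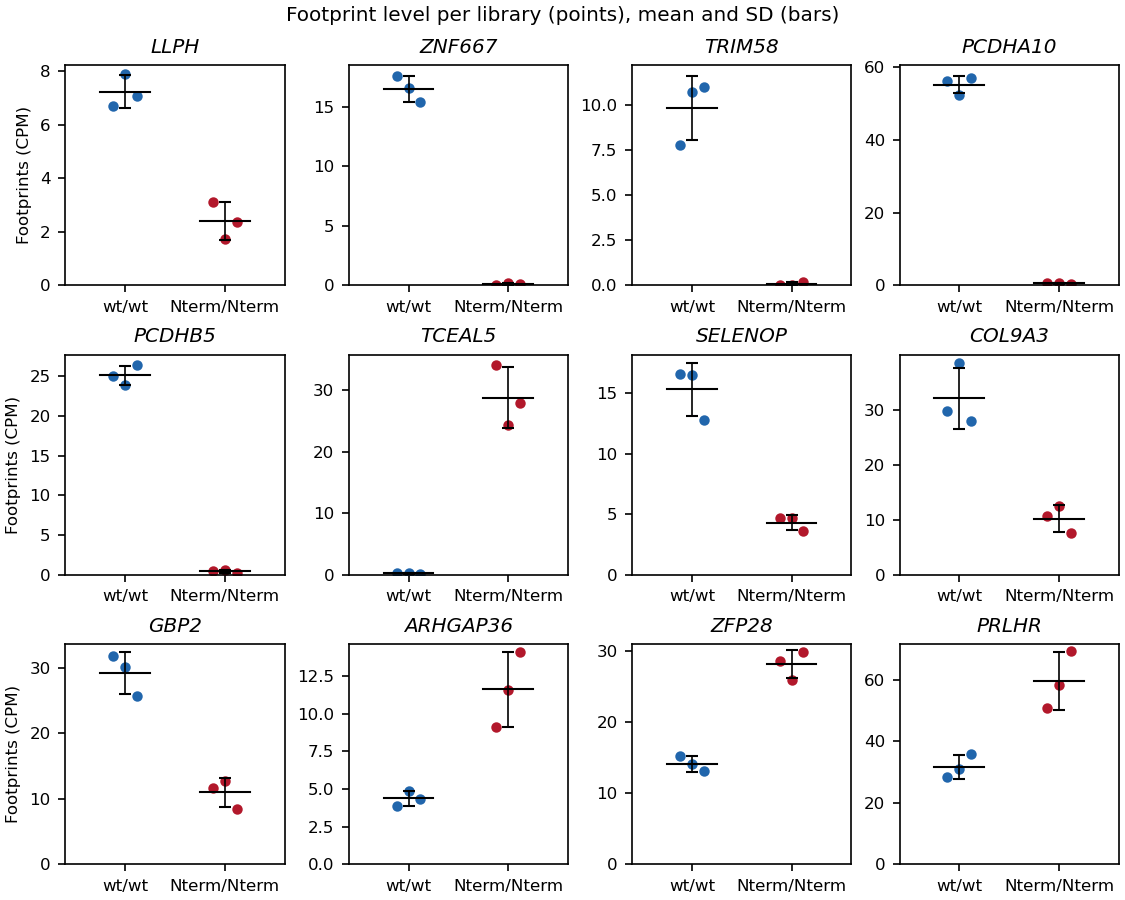
Footprint level of 12 genes (CPM, linear axis from 0) in the 3 wt/wt libraries (blue points) and the 3 Nterm/Nterm libraries (red points), with bars for the mean and SD. The genotypes do not overlap in any of the 12 genes, which the rule required of all but LLPH and TRIM58. ZNF667, TRIM58, PCDHA10, PCDHB5 and TCEAL5 are near 0 in 1 genotype.

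The next question was which of the footprint changes stood in the RNA libraries too, made from polyA RNA of neurons of the same genotypes. In RNA, 17.9% of 14659 tested transcripts were called, 7.25% higher and 10.6% lower. Of 1784 transcripts called in footprints and tested in RNA, 1180 were called in the same direction in RNA. That is 66.1% of these footprint calls and 46.3% of the 2546 RNA calls that were tested in footprints. Lower footprint calls were called lower in RNA in 69.4% of cases and higher ones called higher in 59.4%. The median change of the lower footprint calls was -0.46 in footprints and -0.42 in RNA, and that of the higher calls 0.32 and 0.23. Across these 1784 transcripts, which are not independent replicates, the 2 changes had a Pearson r of 0.918 as a description, to which the genes close to absent from 1 genotype contribute.

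The footprint change differed from the RNA change for 3 of 13422 transcripts, or 0.0224%, by a test of the interaction in all 12 libraries (edgeR, adjusted p under 0.05). An unadjusted p under 0.05 was reached by 638, DESeq2 called 8 and limma-voom 3. LLPH was one of the 3 transcripts, with footprints lower by 1.75 on the log2 scale relative to its RNA (interaction log2 change -1.75, adjusted p = 3.33e-05). Its RNA changed by 0.14 ± 0.06 (adjusted p = 0.135). Whether reads of the Nterm allele were counted alike in the 2 assays is not known. The protocadherin PCDHB5 was another (interaction -3.63, adjusted p = 3.33e-05). Its footprints were 63.4 times higher in wt/wt, with a counting interval of 38.9 to 111, and its RNA 5.05 times higher, with an interval of 4.26 to 6.02. PCDHB9, of the same cluster, was the third (interaction 0.98, adjusted p = 0.00665). Its footprint level was 8.02, 7.98 and 8.16 CPM in wt/wt and 12.5, 11.0 and 15.3 CPM in Nterm/Nterm, a rise of 0.69 ± 0.14 (adjusted p = 0.00207), while its RNA fell by 0.29 on the log2 scale (adjusted p = 0.0135). How reads were divided between close paralogs in either assay is not given, so the values of PCDHB5 and PCDHB9 are uncertain beyond counting error.

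One further gene was called in opposite directions in the 2 assays. CSPG4, a proteoglycan of glial precursors and pericytes, had 5.80, 5.93 and 5.77 footprint CPM in wt/wt against 3.92, 3.65 and 3.55 CPM in Nterm/Nterm (-0.66 ± 0.16, adjusted p = 0.00930). Its RNA rose by 0.35 ± 0.11 (adjusted p = 0.0441), and the interaction of -1.01 had an adjusted p of 0.0866, not past the threshold. CSPG4 and PCDHB9, the 2 opposite calls, are labelled in the plot of footprint against RNA change.

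**Figure D3:**
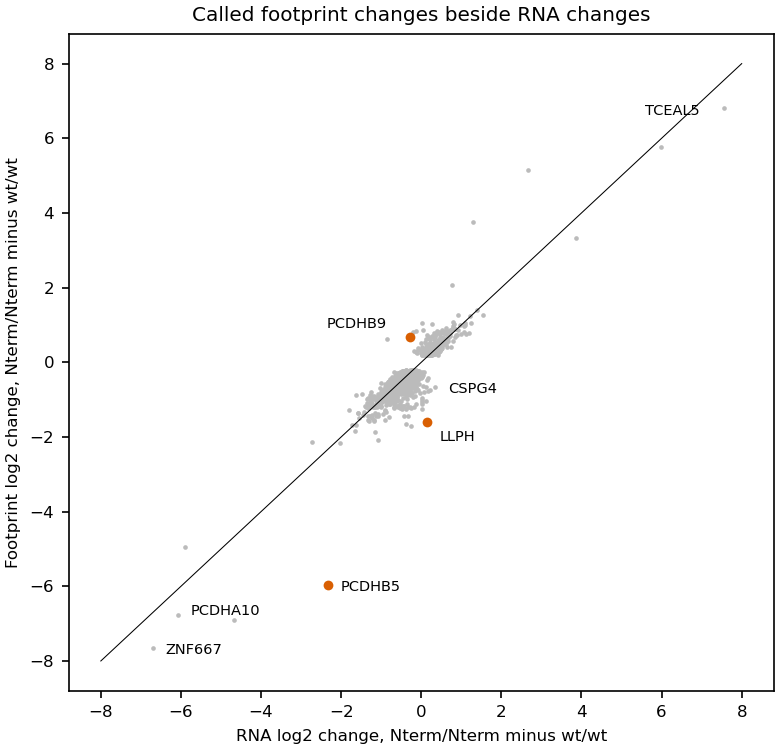
Log2 change in footprints (vertical axis) against log2 change in RNA (horizontal axis), both Nterm/Nterm minus wt/wt, for the 1784 transcripts called in footprints and tested in RNA, with the line of equal change. LLPH, PCDHB5 and PCDHB9 (orange) are the 3 transcripts with a called difference between the assays, and LLPH lies near 0 in RNA and at -1.60 in footprints.

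Gene lists were described by how many tested members were called and by their median change, beside 4.36% called higher, 8.91% called lower and a median of 0.01 over all tested transcripts. Lists and members were chosen with earlier results of these data known, so their direction is a description. Listed genes without a named transcript were not analysed. Among them were 11 of 42 matrix, 14 of 45 interferon, 14 of 35 glutamate and GABA receptor, 15 of 53 channel and 15 of 30 neuropeptide genes. In the plot of change by list, the medians of the matrix, mesenchymal and immune lists lie to the left of 0 and those of the neuronal and cholesterol lists to the right. The lists with the largest negative median were those of the matrix and of mesenchymal cells.

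**Figure D4:**
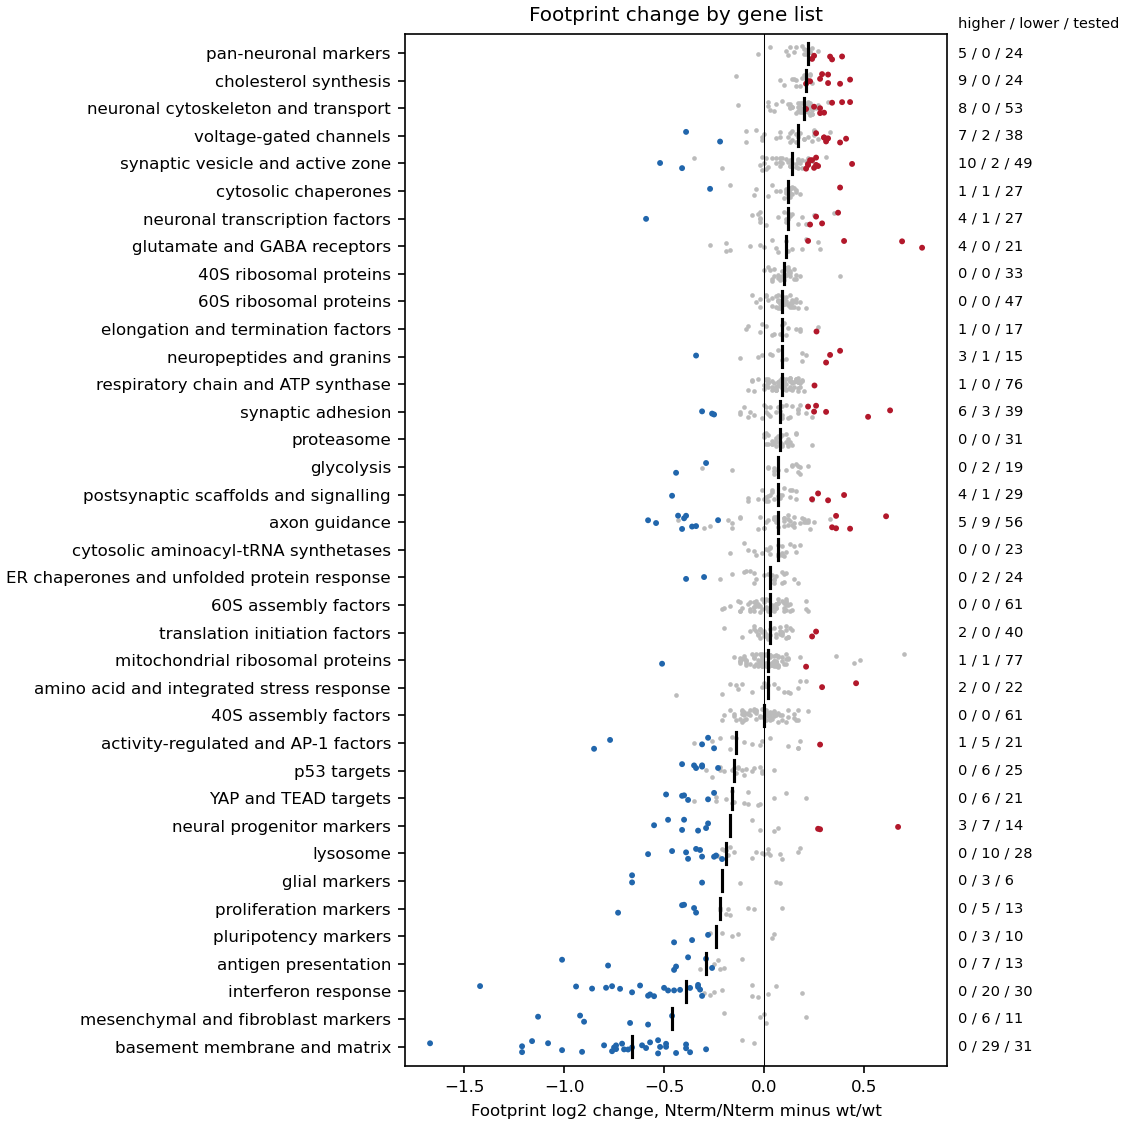
Log2 footprint change (horizontal axis, Nterm/Nterm minus wt/wt) of each tested member of 37 gene lists, ordered by their median (black bar), with called higher members in red, called lower in blue and uncalled in grey, and the counts at the right. The basement membrane and matrix list has its median at -0.66 with 29 of 31 members called lower, and the pan-neuronal list has its median at 0.22 with 5 of 24 called higher.

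The extracellular matrix around cells is built of collagens, laminins and linking glycoproteins, and its genes are mainly expressed by fibroblasts, endothelia and epithelia, though neurons and their progenitors make some of them. Of 31 tested genes for basement membrane and matrix, 29 were lower and 0 higher, with a median of -0.66, and 30 of 31 were lower in RNA. Their summed footprints were 0.621%, 0.592% and 0.563% of all footprints in wt/wt against 0.396%, 0.454% and 0.355% in Nterm/Nterm. The genotypes did not overlap in this share. The count stayed between 25 and 29 in fits that left out 1 library, and was 26 without wt/wt library 2 and Nterm/Nterm library 3 together.

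Among collagen IV chains, COL4A1 stood at -0.66 (adjusted p = 4.34e-04), COL4A2 at -0.49 and COL4A5 at -0.76. Among laminin chains, LAMA1 had 127, 101 and 88.6 CPM in wt/wt and 46.0, 61.6 and 42.0 CPM in Nterm/Nterm (-1.08 ± 0.12, adjusted p = 9.50e-06), LAMB1 stood at -0.68, LAMA5 at -0.53, LAMC1 at -0.49 and LAMB2 at -0.39. The laminin-binding linkers were lower as well, the perlecan gene HSPG2 at -0.80, the nidogen gene NID1 at -0.61 and the agrin gene AGRN at -0.37. Of enzymes and their inhibitors, the matrix metalloproteinase genes MMP2 (-0.74) and MMP14 (-0.29) and the inhibitor genes TIMP1 (-0.52) and TIMP3 (-0.44) were called. The 2 members that were not called were TIMP2 at -0.05 and the microfibril gene MFAP2 at -0.11.

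Fibroblast genes gave a split picture. Of 24 mesenchymal and fibroblast markers, 13 had no named transcript, among them the defining markers PDGFRA, PDGFRB, LUM, DCN and TWIST1, and were not analysed here. Of the 11 tested, 6 were lower and 0 higher, with a median of -0.46. COL1A1, the main chain of collagen I, had 329, 304 and 272 CPM in wt/wt and 139, 177 and 99.7 CPM in Nterm/Nterm (-1.13 ± 0.13, adjusted p = 1.04e-05). FBN1, which encodes the microfibril protein fibrillin, had 126, 107 and 107 against 56.2, 72.8 and 50.9 CPM (-0.92 ± 0.10, adjusted p = 7.46e-06). COL6A2 (-0.90), COL5A1 (-0.67), ACTA2 (-0.58) and FN1 (-0.46) were the other calls, whereas COL1A2 (-0.20), COL6A1 (-0.02), TAGLN (0.00), SPARC (0.01) and THY1 (0.21) were not called. The markers together took 0.772%, 0.673% and 0.711% of the footprints in wt/wt against 0.579%, 0.641% and 0.497% in Nterm/Nterm. In bulk libraries such as these, fewer cells of a type and less RNA per cell cannot be told apart.

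Markers of other cells that are not neurons moved in part. The list of 14 neural progenitor markers had 7 lower and 3 higher calls (median -0.17). NOTCH1, the receptor that holds progenitors undifferentiated, had 107, 86.1 and 97.1 CPM in wt/wt and 58.0, 79.1 and 60.8 CPM in Nterm/Nterm (-0.55 ± 0.10, adjusted p = 9.82e-04). The helix-loop-helix inhibitors went both ways, with ID1 at -0.48 and ID3 at -0.33 lower and ID2 at 0.28 and ID4 at 0.27 higher. SOX1, a transcription factor of neuroectoderm, rose from 15.3, 15.6 and 18.8 to 27.1, 24.4 and 27.6 CPM (0.67 ± 0.10, adjusted p = 2.08e-04). The progenitor intermediate filaments NES (-0.02) and VIM (-0.06) were not called. The lower count was 3 without Nterm/Nterm library 1 and 4 without Nterm/Nterm library 3, wt/wt library 1 or wt/wt library 2, and the higher count was 1 without wt/wt library 1 or Nterm/Nterm library 3.

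Of 13 proliferation markers, 5 were lower and 0 higher (median -0.22). HMGB2, a chromatin protein of dividing cells, had 152, 136 and 131 CPM in wt/wt and 106, 74.8 and 71.4 CPM in Nterm/Nterm (-0.73 ± 0.11, adjusted p = 1.30e-04). The replication genes TYMS (-0.41), MCM6 (-0.40), MCM5 (-0.35) and RRM2 (-0.34) made up the rest, and the defining markers MKI67 and TOP2A had no named transcript. Of 10 pluripotency markers, 3 were lower and 0 higher (median -0.24), namely LIN28A (-0.45, adjusted p = 5.09e-04), DNMT3B (-0.36) and SOX2 (-0.28). Without Nterm/Nterm library 1, Nterm/Nterm library 3 or wt/wt library 2 only 1 of these was called. POU5F1 and NANOG had no named transcript. Of 6 glial markers tested, 3 were lower, GJA1 and CSPG4 at -0.66 each and CLU at -0.31, against 0.06 for APOE and 0.08 for SLC1A2, which were not called.

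The YAP and TEAD pathway switches on growth and adhesion genes in spread, adherent cells. Of its 21 tested targets and components, 6 were lower and 0 higher (median -0.16). The secreted factor CCN2, a standard readout of the pathway, had 257, 279 and 233 CPM in wt/wt and 196, 204 and 150 CPM in Nterm/Nterm (-0.49 ± 0.09, adjusted p = 0.00177). YAP1 itself stood at -0.38 ± 0.08 (adjusted p = 0.00391), PTPN14 at -0.41 and TGFB2 at -0.40, while CCN1 (-0.10) and LATS1 (-0.03) were not called. The count was 3 without Nterm/Nterm library 3, wt/wt library 1 or wt/wt library 2, 4 without Nterm/Nterm library 1 and 10 without Nterm/Nterm library 2. Beside it stand the mesenchymal markers, at a median of -0.46, whose part in the result was not tested.

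Interferons are secreted signals of viral infection. They act through transcription factors, STAT2 and IRF9 among them, which bind the interferon-stimulated response element in the promoters of antiviral genes. The promoters of 4 genes of this list that were called lower are shown, from 250 bases before to 50 after the gene's start, so that the element can be seen beside the footprint values. They were taken from RefSeq for build GRCh38.p14, read on the strand of the gene, at chr14:94110486-94110785 (plus strand) for IFI27, chr10:89327747-89328046 (plus strand) for IFIT3, chr19:17405581-17405880 (minus strand) for BST2 and chr11:320811-321110 (minus strand) for IFITM3. Capitals mark each match to GAAA, any 2 bases and GAAA again on either strand, so that a match on the other strand reads as TTTC followed by any 2 bases and TTTC.
IFI27: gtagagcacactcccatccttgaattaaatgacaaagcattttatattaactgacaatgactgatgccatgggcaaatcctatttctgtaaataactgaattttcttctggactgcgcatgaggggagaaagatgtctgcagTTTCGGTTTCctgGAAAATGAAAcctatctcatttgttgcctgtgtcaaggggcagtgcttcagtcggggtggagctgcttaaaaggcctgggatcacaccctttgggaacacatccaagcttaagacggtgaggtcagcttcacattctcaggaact
IFIT3: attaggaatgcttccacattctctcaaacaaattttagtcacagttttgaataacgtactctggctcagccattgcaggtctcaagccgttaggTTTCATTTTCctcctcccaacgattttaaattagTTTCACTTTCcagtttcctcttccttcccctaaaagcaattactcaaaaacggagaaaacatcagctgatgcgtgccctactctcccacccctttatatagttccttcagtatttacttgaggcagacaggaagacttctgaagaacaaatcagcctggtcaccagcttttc
BST2: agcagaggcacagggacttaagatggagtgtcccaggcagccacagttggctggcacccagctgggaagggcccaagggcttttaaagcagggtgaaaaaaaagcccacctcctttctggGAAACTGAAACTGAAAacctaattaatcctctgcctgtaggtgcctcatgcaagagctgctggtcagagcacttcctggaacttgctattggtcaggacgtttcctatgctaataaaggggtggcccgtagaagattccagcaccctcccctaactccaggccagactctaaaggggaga
IFITM3: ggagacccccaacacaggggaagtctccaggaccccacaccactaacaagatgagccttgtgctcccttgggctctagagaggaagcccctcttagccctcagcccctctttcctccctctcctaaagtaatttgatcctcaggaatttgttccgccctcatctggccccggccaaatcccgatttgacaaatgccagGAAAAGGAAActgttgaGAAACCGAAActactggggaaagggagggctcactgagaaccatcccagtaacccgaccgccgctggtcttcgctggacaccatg

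Each of these 4 promoters holds 2 matches. In IFI27 they begin 108 and 95 bases before the start of the gene, 1 on each strand. In IFIT3 they begin 156 and 122 bases before the start, and in BST2 130 and 124 bases before it, where they overlap. In IFITM3 they begin 52 and 35 bases before the start. The motif was found in 996 of 27305 RefSeq promoters of this length, or 3.65%, and in 227 of the 8839 promoters that could be matched to a tested gene, or 2.57%. Of 25 interferon response genes with a promoter in the table, 17 held it, 12 of 16 that were called lower and 5 of 9 that were not called. Of 709 matched genes called lower in all, 34 held it, or 4.80%, and of 403 called higher, 6 held it, or 1.49%. None of 24 matched matrix genes did. A match is a description of these letters and does not show a bound site.

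Of 30 tested interferon response genes, 20 had fewer footprints in Nterm/Nterm and 0 had more, with a median of -0.39, and 22 were lower in RNA. GBP2, an interferon-induced GTPase, had 31.8, 30.1 and 25.6 CPM in wt/wt and 11.7, 12.7 and 8.42 CPM in Nterm/Nterm (-1.42 ± 0.13, adjusted p = 5.60e-07). IFI27, whose promoter heads the sequences above, had 19.5, 21.3 and 18.8 against 12.1, 10.6 and 8.75 CPM (-0.94 ± 0.12, adjusted p = 3.92e-05). In both genes, every wt/wt library stood above every Nterm/Nterm library, which the rule for the largest decreases required of GBP2.

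IFIT3, which takes part in blocking viral mRNA, had 47.0, 40.5 and 33.2 CPM in wt/wt and 24.5, 23.0 and 19.1 CPM in Nterm/Nterm (-0.86 ± 0.11, adjusted p = 5.28e-05). BST2, the membrane protein tetherin that holds back budding viruses, had 46.9, 50.4 and 45.5 against 30.3, 33.5 and 23.6 CPM (-0.72 ± 0.10, adjusted p = 9.76e-05). IFITM3, a membrane protein that hinders viral entry, stood at -0.57 (adjusted p = 4.10e-04), and GBP1 at -0.79, IFITM2 at -0.76, EPSTI1 at -0.66, MX1 at -0.58 and IFIT1 at -0.55 were called as well. Of the signalling genes themselves, IRF1 (-0.48) and STAT2 (-0.33) were lower. Not called were ISG15 at -0.21, IFI6 at 0.19, IFIT5 at 0.02 and SAMHD1 at 0.06, and ISG15, IFI6 and IFIT5 hold the motif in their promoters. In the same libraries the 11 mesenchymal markers had a median of -0.46, and their part in the changes of immune and lysosomal genes was not tested. The interferon count was 16 to 22 in fits without 1 library and 13 without wt/wt library 2 and Nterm/Nterm library 3 together.

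Cells show peptides to T cells on class I molecules, which are loaded in the endoplasmic reticulum, and interferon raises the genes of this route. Of 13 antigen presentation genes tested, 7 were lower and 0 higher (median -0.29), with 11 lower in RNA. CD74, the invariant chain of class II molecules, had 46.7, 52.4 and 47.3 CPM in wt/wt and 25.4, 26.7 and 21.1 CPM in Nterm/Nterm (-1.01 ± 0.09, adjusted p = 5.88e-07). Of the trimming peptidases, ERAP1 had 70.7, 65.5 and 61.6 against 48.7, 53.5 and 42.3 CPM (-0.45), and ERAP2 stood at -0.78 ± 0.12 (adjusted p = 3.18e-04). Also lower were the immunoproteasome subunit PSMB10 (-0.44), the loading factor TAPBP (-0.38), HLA-E (-0.29) and HLA-B (-0.26), while HLA-C (-0.20) and B2M (-0.23) were not called. Without Nterm/Nterm library 3 the count was 4, without any filter on low counts it was 11, and Nterm/Nterm library 3 was the lowest library for CD74, ERAP1 and TAPBP.

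Lysosomes break down material with acid hydrolases. Of 28 lysosomal genes, 10 were lower and 0 higher (median -0.19), and 15 were lower in RNA. MANBA, a mannosidase, had 162, 156 and 139 CPM in wt/wt and 100, 108 and 96.9 CPM in Nterm/Nterm (-0.58 ± 0.07, adjusted p = 2.24e-05). TPP1, a peptidase, had 149, 157 and 148 against 113, 120 and 97.5 CPM (-0.46 ± 0.07, adjusted p = 3.69e-04). LGMN (-0.38), HEXA (-0.39), GAA (-0.34), CTSL (-0.32), GUSB (-0.31), GRN (-0.24) and NPC2 (-0.21) were among the others. The proton pump subunit genes ATP6V0A1 (0.09), ATP6V1A (-0.01) and ATP6V1B2 (0.18) and the membrane protein genes LAMP1 (-0.04) and LAMP2 (-0.15) were not called. Without Nterm/Nterm library 1, Nterm/Nterm library 3 or wt/wt library 2 the count was 6.

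p53 responds to DNA damage. Of 25 of its targets tested, 6 had fewer footprints and 0 more (median -0.15), where 16 were lower in RNA. The called genes were FDXR, of iron-sulfur metabolism (-0.41 ± 0.07, adjusted p = 0.00121), the DNA repair genes XPC (-0.31), DDB2 (-0.35) and RRM2B (-0.31), SESN1 (-0.34) and PLK2 (-0.23). XPC had 130, 126 and 123 CPM in wt/wt and 102, 103 and 99.5 CPM in Nterm/Nterm. The best-known targets CDKN1A (-0.06) and MDM2 (-0.14) and the death genes BAX (-0.01) and BBC3 (-0.22) were not called. The count was 3 without Nterm/Nterm library 3 and 4 without wt/wt library 2.

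Immediate early genes are switched on within minutes by growth factors or electrical activity. Of 21 such and related AP-1 genes, 5 were lower and 1 higher (median -0.14). FOS had 18.0, 21.2 and 22.7 CPM in wt/wt and 11.0, 11.8 and 11.7 CPM in Nterm/Nterm (-0.85 ± 0.11, adjusted p = 5.30e-05). EGR1 had 46.6, 52.9 and 54.5 against 32.7, 32.6 and 25.7 CPM (-0.77 ± 0.09, adjusted p = 2.29e-05), while its RNA change of -0.34 ± 0.20 was not called (adjusted p = 0.262). The interaction for EGR1 was -0.43 with an adjusted p of 0.992, so its 2 changes were not shown to differ. JUNB (-0.31), FOSL2 (-0.28) and IER5 (-0.25) were the other lower calls, and MYC was higher, from 69.0, 76.2 and 75.3 to 89.7, 89.0 and 89.8 CPM (0.28 ± 0.07, adjusted p = 0.00802). The lower count was 2 without wt/wt library 2 or Nterm/Nterm library 3, and it was 3 without Nterm/Nterm library 1.

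Neurons make much of their own sterols, and the enzymes of the route from acetyl-CoA to cholesterol are regulated together by SREBF2. Of 24 tested genes for cholesterol synthesis, 9 had more footprints in Nterm/Nterm and 0 fewer (median 0.21), and 16 were higher in RNA. Their summed footprints were 0.466%, 0.460% and 0.489% of the total in wt/wt libraries and 0.533%, 0.523% and 0.562% in Nterm/Nterm libraries, and the genotypes did not overlap in this share. At the start of the route, ACAT2 had 225, 207 and 228 CPM in wt/wt and 267, 254 and 299 CPM in Nterm/Nterm (0.32 ± 0.07, adjusted p = 0.00725). SQLE, which oxidises squalene, had 220, 209 and 233 against 264, 267 and 279 CPM (0.29 ± 0.07, adjusted p = 0.00692).

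At the end of the route, DHCR7 had 121, 126 and 139 CPM in wt/wt and 158, 165 and 180 CPM in Nterm/Nterm (0.38 ± 0.07, adjusted p = 0.00128). In each of these 3 enzymes the lowest Nterm/Nterm library stood above the highest wt/wt library. EBP (0.43), CYP51A1 (0.28), LSS (0.23), FDPS (0.22) and TM7SF2 (0.21) were called as well. HMGCS1 (0.20) and the regulator SREBF2 (0.21) were not, and STARD4, at -0.14, was the 1 member below 0. The number of calls was 4 without wt/wt library 1, 5 without wt/wt library 2 or Nterm/Nterm library 3, 6 without Nterm/Nterm library 1 and 14 without wt/wt library 3. The median lay between 0.18 and 0.26 in these fits.

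Most neuronal identity genes were not called. Of 24 pan-neuronal markers, 5 were called higher and 0 lower, with a median of 0.22, and 23 of 24 changes were above 0, where 52.1% of all tested transcripts were. The neurofilament genes NEFM (0.39) and NEFL (0.34), the granin gene CHGA (0.33) and the vesicle genes SYN1 (0.25) and SYP (0.24) were the calls. SYN1, which tethers synaptic vesicles, had 190, 191 and 229 CPM in wt/wt and 238, 235 and 252 CPM in Nterm/Nterm (0.25 ± 0.08, adjusted p = 0.0324), with wt/wt library 3 close to the Nterm/Nterm range. This count was 0 without wt/wt library 1 or Nterm/Nterm library 1, 1 without Nterm/Nterm library 2, 2 without wt/wt library 2, 3 without Nterm/Nterm library 3 and 17 without wt/wt library 3. The median stayed between 0.14 and 0.28, and DESeq2 called 11 and limma-voom 10 of the markers.

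Microtubules, neurofilaments and motor proteins shape axons and carry cargo along them. Of 53 genes for the neuronal cytoskeleton and transport, 8 were higher and 0 lower (median 0.20), and 34 were higher in RNA. DCTN1, the large subunit of the dynein activator dynactin, had 361, 352 and 420 CPM in wt/wt and 445, 475 and 474 CPM in Nterm/Nterm (0.30 ± 0.08, adjusted p = 0.0140). TUBB4A, a neuronal beta-tubulin, had 246, 223 and 270 against 306, 300 and 293 CPM (0.28 ± 0.07, adjusted p = 0.0138). The genotypes did not overlap in either gene. MAP7D2 (0.43), DPYSL5 (0.28), TUBA1B (0.25) and MAP6 (0.21) were called with them. Kinesins were not: KIF5A stood at 0.24, KIF1A at 0.22, KIF5C at 0.18 and KIF5B at 0.02.

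The list as a whole took 3.76%, 3.23% and 3.98% of the footprints in wt/wt against 4.08%, 4.13% and 4.19% in Nterm/Nterm, so wt/wt library 2 stood apart from the other 5. The count was 0 without wt/wt library 1, 3 without Nterm/Nterm library 1, 4 without Nterm/Nterm library 2, Nterm/Nterm library 3 or wt/wt library 2, and 28 without wt/wt library 3, and DESeq2 called 13. The median of the cytoskeleton list ranged from 0.13 to 0.27 in these fits.

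Of 49 genes for the synaptic vesicle and active zone, 10 were higher and 2 lower (median 0.14). The calcium sensor SYT5 had 62.8, 62.5 and 74.5 CPM in wt/wt and 86.4, 89.3 and 95.3 CPM in Nterm/Nterm (0.44 ± 0.08, adjusted p = 7.58e-04). SYT1, the calcium sensor for fast release, had 425, 385 and 427 against 504, 498 and 476 CPM (0.26 ± 0.07, adjusted p = 0.0236). Against this trend, the vesicle protein gene SV2B had 37.1, 36.9 and 32.9 against 25.2, 24.1 and 25.5 CPM (-0.52 ± 0.08, adjusted p = 4.46e-04). The active-zone scaffold gene PCLO had 447, 315 and 408 against 302, 276 and 302 CPM (-0.41 ± 0.10, adjusted p = 0.00704). For PCLO, wt/wt library 2 lay close to the Nterm/Nterm libraries, and the call was lost without wt/wt library 1 (adjusted p = 0.0648). The higher count of the list was 1 without wt/wt library 1 or wt/wt library 2, 2 without Nterm/Nterm library 3 and 3 without Nterm/Nterm library 1 or 2.

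Among 39 synaptic adhesion genes, 6 were higher and 3 lower (median 0.08). The teneurins, large adhesion proteins that pair across synapses, divided. TENM2 had 81.8, 78.0 and 97.2 CPM in wt/wt and 118, 128 and 151 CPM in Nterm/Nterm, and TENM1 (0.31) and TENM4 (0.22) were higher too. TENM3 went from 118, 104 and 109 to 84.4, 92.5 and 90.3 CPM (-0.31 ± 0.07, adjusted p = 0.00568). SLITRK4 rose from 29.5, 26.6 and 30.5 to 41.8, 37.9 and 43.9 CPM (0.52 ± 0.09, adjusted p = 4.49e-04), CADM4 (0.25) and the neuroligin NLGN2 (0.26) were higher, and ELFN1 (-0.25) and PTPRF (-0.26) lower. The neurexin gene NRXN2 (0.08) was not called. The higher count was 2 without wt/wt library 1, 3 without Nterm/Nterm library 2 or 3 and 4 without Nterm/Nterm library 1 or wt/wt library 2. The lower count was 1 without wt/wt library 1 or Nterm/Nterm library 3.

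Among 29 postsynaptic genes, 4 were higher and 1 lower (median 0.07), and SHANK1, a scaffold of excitatory synapses, rose from 31.5, 35.6 and 42.1 to 47.4, 49.9 and 46.8 CPM (0.40 ± 0.09, adjusted p = 0.00573). The 2 kinase genes of one family parted, with CAMK2B at 0.24 ± 0.07 (adjusted p = 0.0247) and CAMK2D at -0.46 ± 0.08 (adjusted p = 4.44e-04). CAMK2D had 79.5, 77.3 and 70.5 CPM in wt/wt and 59.0, 55.7 and 51.0 CPM in Nterm/Nterm. Among 21 glutamate and GABA receptor genes, 4 were higher and 0 lower (median 0.11), namely GABRG3, GRIN3A, GRIK2 (0.40) and GABRA3 (0.22), and the AMPA receptor genes GRIA2 (0.07) and GRIA3 (0.27) were not called. The postsynaptic higher count was 1, and the receptor count 2, without Nterm/Nterm library 3, wt/wt library 1 or wt/wt library 2, and the postsynaptic count was also 1 without Nterm/Nterm library 1.

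Among 38 genes for voltage-gated channels, the calls were 7 higher and 2 lower (median 0.17). CACNA1B, the pore of the N-type calcium channel at release sites, had 79.0, 82.2 and 91.9 CPM in wt/wt and 104, 110 and 122 CPM in Nterm/Nterm (0.41 ± 0.08, adjusted p = 0.00113). The calcium channel beta subunits CACNB1 (0.30) and CACNB3 (0.26) and the potassium channels KCNH7 (0.38), KCNA6 (0.31) and KCNB2 (0.30) were higher. CACNA2D3, an accessory calcium channel subunit, fell from 42.4, 43.5 and 39.1 to 32.7, 30.9 and 31.8 CPM (-0.39 ± 0.08, adjusted p = 0.00249), and the sodium channel gene SCN9A stood at -0.22 (adjusted p = 0.0463). The higher count was 1 without wt/wt library 1, 2 without Nterm/Nterm library 3 and 3 without wt/wt library 2, and the lower count was 1 without any 1 library other than wt/wt library 2.

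Of 56 axon guidance genes, 5 were higher and 9 lower, with a median of 0.07 and 35 changes above 0, and all transcripts had 2.05 lower calls for each higher one. Receptors for semaphorins, which repel axons and act on vessels too, were among the lower ones. NRP2 had 125, 116 and 107 CPM in wt/wt and 78.9, 81.7 and 72.4 CPM in Nterm/Nterm (-0.58 ± 0.07, adjusted p = 3.52e-05), and its relative NRP1 stood at -0.40 and PLXND1 at -0.54. Ephrin receptors split by member: EPHA4 (0.61) and EPHB1 (0.43) were higher, and EPHA2 (-0.39) and EPHB4 (-0.41) lower. EPHA4 had 60.3, 66.7 and 77.5 CPM in wt/wt and 90.6, 101 and 121 CPM in Nterm/Nterm. The higher count was 3 without Nterm/Nterm library 3 or wt/wt library 1 and 9 without wt/wt library 3, and the lower count 6 without Nterm/Nterm library 1 or 3 and 5 without wt/wt library 2.

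Of 27 neuronal transcription factor genes, 4 were higher and 1 lower (median 0.12). ISL1 (0.26 ± 0.07, adjusted p = 0.0202), ISL2 (0.23), DRGX (0.37) and CUX2 (0.29) were higher. NEUROD1, a factor of early neurogenesis, went from a mean of 12.2 CPM in wt/wt to 8.08 CPM in Nterm/Nterm (-0.59 ± 0.13, adjusted p = 0.00448) and kept its call in every fit without 1 library. NEUROG2, whose protein is the Ngn2 used to make the neurons, stood at 0.13 (adjusted p = 0.253), and whether its counts come from the transgene or the native gene is not given. Of 15 neuropeptide and granin genes, 3 were higher (CHGA, VGF at 0.31 and PCSK1N at 0.38) and 1 lower (PAM at -0.34, the enzyme that amidates peptides). The higher count of the transcription factors was 0 without wt/wt library 1, 1 without Nterm/Nterm library 1 or 3, 2 without wt/wt library 2 and 7 without wt/wt library 3, and that of the granins was 0 without wt/wt library 1, and 1 without wt/wt library 2 or Nterm/Nterm library 1.

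Beside the increases in neuronal lists, the 11 mesenchymal markers had a median of -0.46 and the 14 progenitor markers one of -0.17 in the same libraries, and their part in the neuronal results was not tested. The libraries also varied within a genotype along the same lists. Relative to the mean of the 6 footprint libraries, the median deviation of the matrix genes was 0.42, 0.28 and 0.24 on the log2 scale in wt/wt libraries 1 to 3 and -0.31, -0.07 and -0.51 in Nterm/Nterm libraries 1 to 3. Nterm/Nterm library 3 was the lowest library for the matrix, mesenchymal, interferon and antigen presentation lists. The pan-neuronal list stood at -0.09, -0.26 and 0.02 in wt/wt against 0.15, 0.10 and 0.10 in Nterm/Nterm. The plot of list levels by library shows these values beside those of the RNA libraries.

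**Figure D5:**
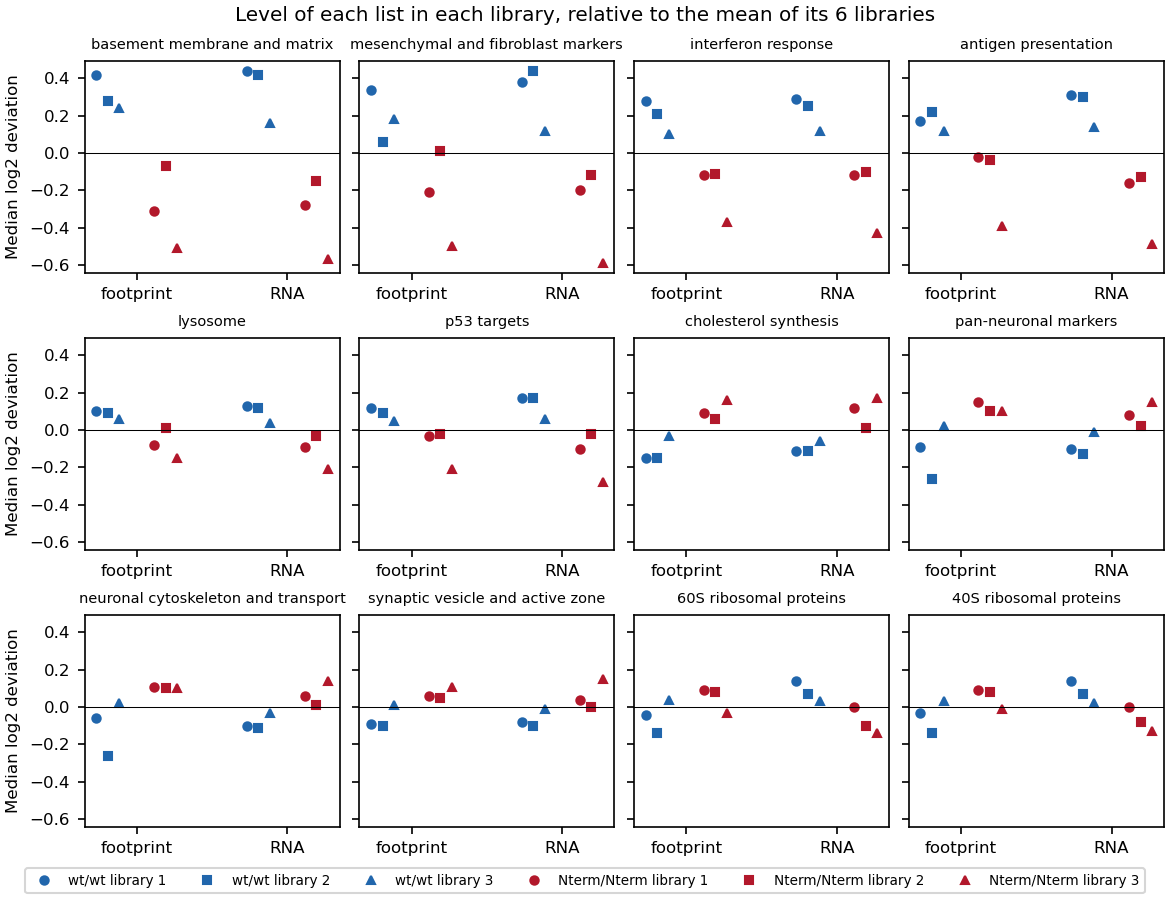
Median log2 deviation of the tested members of 12 gene lists in each library (vertical axis) from the mean of the 6 libraries of its assay, for footprints and RNA, with wt/wt in blue and Nterm/Nterm in red and a marker shape for each library number. Matrix genes lie between 0.24 and 0.42 in the wt/wt and between -0.51 and -0.07 in the Nterm/Nterm footprint libraries, and ribosomal protein genes overlap between genotypes in footprints.

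LLPH is a nucleolar protein, and ribosomes are assembled in the nucleolus, so genes of the ribosome and its assembly were examined next. No ribosomal protein gene was called in footprints, 0 of 47 for the large (60S) and 0 of 33 for the small (40S) subunit, with medians of 0.09 and 0.10. The change was above 0 for 43 of 47 and 33 of 33 of them, beside 52.1% of all tested transcripts. DESeq2 and limma-voom also called 0, and 8 and 4 genes had an unadjusted p under 0.05 by edgeR. In RNA, 32 and 18 of the same genes were lower, with medians of -0.17 and -0.15, and none had a called interaction, whose medians were 0.26 and 0.25. RPL4 had 567, 509 and 576 CPM in wt/wt and 599, 616 and 585 CPM in Nterm/Nterm, a footprint change of 0.12 ± 0.08 (adjusted p = 0.307), beside an RNA change of -0.19 (adjusted p = 0.00961). RPS3 had 350, 343 and 392 against 412, 418 and 378 CPM, a footprint change of 0.16 ± 0.07 (adjusted p = 0.181), beside an RNA change of -0.18 (adjusted p = 0.0259). Without wt/wt library 3, 4 genes of the large subunit were called higher. How reads matching several close copies were counted is not given, so single ribosomal protein values are uncertain.

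The factors that build ribosomes were likewise uncalled. Of 61 assembly factors for the 60S subunit, 0 were called, with changes between -0.21 and 0.22 and a median of 0.03, and 5 were at an unadjusted p under 0.05. Of 61 for the 40S subunit, 0 were called, with changes over the same range and a median of 0.00, and 4 were at an unadjusted p under 0.05. DDX24, a helicase of 60S assembly, had 387, 365 and 418 CPM in wt/wt and 411, 425 and 431 CPM in Nterm/Nterm, and NOC2L had 147, 157 and 163 against 162, 164 and 165 CPM. Their changes were 0.12 and 0.07, and the genotypes overlapped in both. BMS1, a GTPase of 40S assembly, had 141, 131 and 139 against 139, 132 and 146 CPM, which overlap almost fully. DESeq2 and limma-voom called 0 members of either list.

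Among the translation factors, few were called. Of 40 initiation factors, EIF4G3, a scaffold of cap binding, was higher, with 216, 204 and 231 CPM in wt/wt and 252, 258 and 266 CPM in Nterm/Nterm (0.26 ± 0.07, adjusted p = 0.0167). The cap-binding inhibitor EIF4EBP2 was the other, at 0.24 ± 0.08 (adjusted p = 0.0440). Neither was called without Nterm/Nterm library 3, wt/wt library 1 or wt/wt library 2, and 1 was called without Nterm/Nterm library 2 and 1 by DESeq2. Of 17 elongation and termination factors, EEF1A2, the form of the elongation factor used in neurons and muscle, was higher, with 420, 407 and 477 against 530, 513 and 524 CPM (0.26 ± 0.08, adjusted p = 0.0258), and it was called in 1 of 6 fits without 1 library, that without wt/wt library 3. None of 23 aminoacyl-tRNA synthetase genes was called by edgeR, DESeq2 or limma-voom (median 0.07, 3 at an unadjusted p under 0.05).

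Of 77 mitochondrial ribosomal protein genes, MRPL48 was lower and MRPL32 higher. MRPL48 had 50.8, 48.5 and 48.8 CPM in wt/wt and 35.0, 32.4 and 36.3 CPM in Nterm/Nterm (-0.51 ± 0.08, adjusted p = 1.72e-04) and kept its call without any 1 library, whereas MRPL32 (0.21 ± 0.07, adjusted p = 0.0446) was called in 1 of those 6 fits. Of 76 respiratory chain and ATP synthase genes, NDUFB11 alone was called, at 0.25 ± 0.07 (adjusted p = 0.0265), and 70 of the 76 changes were above 0, with a median of 0.09. It was not called without any 1 library other than wt/wt library 3, and without that library 5 of these genes were. Of 31 proteasome genes, 0 were called by edgeR, DESeq2 or limma-voom (median 0.08, 4 at an unadjusted p under 0.05). Of 19 glycolysis genes, 2 were lower, HK2 with 95.8, 94.7 and 84.7 against 67.7, 77.6 and 58.3 CPM (-0.44 ± 0.09, adjusted p = 0.00225) and PFKP (-0.29 ± 0.08, adjusted p = 0.0225), while the neuronal enolase ENO2 stood at 0.22 and was not called. Without Nterm/Nterm library 1, Nterm/Nterm library 3 or wt/wt library 1 the glycolysis count was 1.

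Stress pathways gave few calls as well. Of 22 genes of the amino acid and integrated stress response, CHAC1, which degrades glutathione, had 27.3, 30.6 and 28.1 CPM in wt/wt and 41.0, 40.4 and 37.1 CPM in Nterm/Nterm (0.46 ± 0.08, adjusted p = 0.00107), and the arginine transporter gene SLC7A1 stood at 0.29 ± 0.07 (adjusted p = 0.00940). The other targets of the pathway, among them ATF4 (0.18), ASNS (0.13), TRIB3 (0.21) and DDIT3 (-0.11), were not called. Of 24 genes for chaperones of the endoplasmic reticulum and the unfolded protein response, SEC24D (-0.39 ± 0.08, adjusted p = 0.00239) and EDEM1 (-0.30 ± 0.10, adjusted p = 0.0415) were lower, and the main chaperone HSPA5 stood at 0.02. Of 27 cytosolic chaperone genes, HSPA1A was higher at 0.38 ± 0.10 (adjusted p = 0.0195) and BAG3 lower at -0.27 ± 0.08 (adjusted p = 0.0277). HSPA1A was not called without Nterm/Nterm library 3 or wt/wt library 1, nor BAG3 without Nterm/Nterm library 1, Nterm/Nterm library 3 or wt/wt library 2. Of SEC24D and EDEM1, 1 was called without any 1 of Nterm/Nterm libraries 1 and 3 and wt/wt libraries 1 and 2, and without wt/wt library 1 the stress response count was 1.

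Genes with the most footprints were described separately, since their values rest on the largest counts. Among called genes, the 8 with the highest mean CPM in the lower direction were FN1, MYH9, DSP, FBN2, MMP14, CTNNA1, FLNC and PTPRF. FN1, which encodes fibronectin, had 2897, 2236 and 2479 CPM in wt/wt and 1858, 2168 and 1518 CPM in Nterm/Nterm (-0.46 ± 0.12, adjusted p = 0.0153). The gap between the nearest libraries, 2236 and 2168, was small. MYH9, the heavy chain of nonmuscle myosin IIA, had 1465, 1351 and 1369 against 1068, 1227 and 921 CPM (-0.38 ± 0.10, adjusted p = 0.0129). DSP, the desmosome protein desmoplakin, had 832, 661 and 715 against 526, 616 and 469 CPM (-0.45 ± 0.10, adjusted p = 0.00423) and was the 1 gene of the 8 to keep its call without any 1 library.

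In the higher direction, the 8 included NEFM, CHGA, SERINC1, NEFL, APLP1, GPC2 and ATP1B1. NEFM, the medium neurofilament, had 1588, 1301 and 1759 CPM in wt/wt and 2051, 2060 and 1966 CPM in Nterm/Nterm (0.39 ± 0.10, adjusted p = 0.0160). The Nterm/Nterm libraries lay close together and the wt/wt libraries did not, with library 2 the lowest. GPC2, a neuronal heparan sulfate proteoglycan, had 523, 534 and 630 against 724, 736 and 704 CPM (0.36 ± 0.08, adjusted p = 0.00607). Each of the 8 lost its call in 1 to 5 of the 6 fits without 1 library, and every one lost it without wt/wt library 1.

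The clustered protocadherins give neurons a surface identity, with each neuron using a few of the many members. Of 19 tested, 8 were higher and 5 lower. PCDHB16 had 104, 96.4 and 104 CPM in wt/wt and 60.5, 57.6 and 59.9 CPM in Nterm/Nterm (-0.78 ± 0.07, adjusted p = 3.99e-07). PCDHGB4 had 32.0, 26.4 and 29.1 against 54.6, 50.6 and 55.3 CPM (0.88 ± 0.08, adjusted p = 1.02e-06), and PCDHA12 had 34.3, 32.6 and 38.8 against 53.7, 53.2 and 57.8 CPM (0.64 ± 0.08, adjusted p = 2.66e-05). In each of these 3 the genotypes were far apart relative to the spread. The sums over each cluster differed little. The 6 alpha members together had 340 ± 22.1 CPM in wt/wt and 331 ± 15.3 CPM in Nterm/Nterm, the 7 beta members 439 ± 26.1 and 459 ± 12.9, and the 6 gamma members 544 ± 50.7 and 605 ± 16.3 (SD, n = 3). How reads were divided between these close paralogs is not given, so each single member's value is uncertain.

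The genes of the zinc finger list, taken only by symbol (ZNF, ZFP, ZSCAN or ZKSCAN with a number), were mainly uncalled. Most of them, though not all, encode DNA-binding repressors. Of 398 tested, 17 were higher and 14 lower, beside 4.36% and 8.91% of all transcripts. Beside ZNF667, ZNF506 fell from 18.4, 15.0 and 16.6 to 8.49, 7.15 and 8.55 CPM (-1.04 ± 0.13, adjusted p = 1.94e-05) and ZNF185 from 31.8, 32.3 and 29.1 to 20.1, 18.7 and 13.6 CPM (-0.84 ± 0.11, adjusted p = 7.01e-05). ZFP28 rose from 15.3, 14.1 and 13.1 to 28.6, 26.0 and 29.9 CPM (0.99 ± 0.10, adjusted p = 2.57e-06). The higher count of this list was 6, 9, 8 and 10 without wt/wt library 1, wt/wt library 2, Nterm/Nterm library 3 and Nterm/Nterm library 1. Of 16 imprinted genes tested, 3 were lower and 0 higher, SLC22A18 at -0.47, PHLDA2 at -0.39 and IGF2 at -0.87 ± 0.26 (adjusted p = 0.0334). The imprinted count was 1 without Nterm/Nterm library 1, Nterm/Nterm library 3 or wt/wt library 2. IGF2 rests on 0.789 to 2.23 CPM per library and lost its call in 5 of 6 fits without 1 library.

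Called genes were also placed in chromosomal order, with RefSeq gene order of assembly GRCh38.p14 and no coordinates, since the deposited counts used build GRCh37. Of 1382 called genes with a tested next gene, 135, or 9.77%, were followed by a gene called in the same direction, where 8.14% of named transcripts were called lower and 4.81% higher. There were 15 runs of 3 or more neighbours called the same way, 14 lower and 1 higher, and no run was longer than 4 genes. The desmosomal cadherin genes DSC3, DSC2, DSG3 and DSG2, which encode the partners of desmoplakin, were all lower, at -0.41 to -0.28. The antiviral ligase genes TRIM21, TRIM68, TRIM5 and TRIM22 were lower at -0.42 to -0.29, and PARP9, DTX3L and PARP14 at -0.50 to -0.33. The 1 higher run was made of the protocadherin genes PCDHB9, PCDHB10, PCDHB14 and PCDHB15, at 0.32 to 0.74.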

How the data were processed

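Footprint and polyA RNA libraries of 6 samples each were deposited as counts per transcript, and all are whole numbers. Per the submitters' processing notes, the tools were Salmon 1.4.0, Bowtie2 2.3.4.3, edgeR, limma, UMI-tools 1.0.1 and cutadapt 2.4, and the build GRCh37. The sources used here do not give which tool made which count, or how reads with several matches were treated. A deposited table of translation efficiency, with ratio and p-value columns per the file headers, was used for gene symbols only.

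Counts were filtered with filterByExpr (minimum count 10, minimum total 15, 3 libraries), scaled with TMM factors and tested with edgeR 4.0.16 (quasi-likelihood, R 4.3.3), 3 libraries against 3, with Benjamini-Hochberg adjustment over all tested transcripts. The SE of a log2 change is its size divided by the square root of its F value. Footprint and RNA changes were compared through an assay by genotype interaction term in a fit of 12 libraries. In data simulated for the footprint comparison, changes were put only on transcripts of at least 10 CPM, so recovery at lower levels was not measured. Of these, 100 of 100 changes of 1.0 and 93 of 100 of 0.5 (log2) were recovered. Beside the 100 and 93 recovered changes stood 21 false calls, with 13502 transcripts tested. For the interaction, 100 of 100 and 76 of 99 were recovered, with 13 false calls beside them and 13355 transcripts tested. Ratios of summed counts have exact 95% intervals for counting error. List levels by library used log2 of CPM plus 0.5. Tables and plots were made with Python 3.11.15, pandas 2.3.3, scipy 1.17.1 and matplotlib 3.10.9, and the alternatives used DESeq2 1.42.0 and limma 3.58.1.

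The 42 gene lists and the genes were chosen with earlier results of these data known. Named by rule were LLPH, the 20 largest changes in each direction (named, at least 10 CPM in the higher genotype, no overlap), the 8 called genes with most footprints in each direction, up to 4 called members of each list with the smallest p or, where none was called, 2 with the highest CPM, and genes with a called interaction. TRIM58, the other list members and the neighbour runs were named after their values were seen. A comparison of protein lengths was not made. A few members of the lists are not reported here.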

Additional observations from a re-analysis of the deposited data

How the results depend on the processing

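The number of footprint calls, 1800 as reported, was 1469 to 2317 under other scaling, tests, filters and the replicate block, and 954 to 2045 without 1 library (higher calls 168 to 760, lower calls 699 to 1291, calls past 2-fold 106 to 203). Requiring 100 counts in every library of 1 genotype left 42 calls past 2-fold among 10786 tested transcripts, against 150 among 13566 in the main fit. The cause was not tested. Leaving out wt/wt library 2 and Nterm/Nterm library 3 together, chosen after seeing the data, left 622 calls (155 higher, 467 lower, 76 past 2-fold). It left 2 cholesterol, 4 lysosome, 13 interferon, 3 antigen presentation, 3 cytoskeleton and 2 synaptic vesicle calls, with fewer samples. Without 1 library, the cholesterol count was 4 to 14, cytoskeleton 0 to 28, synaptic vesicle 1 to 14, antigen presentation 4 to 9, matrix 25 to 29, interferon 16 to 22, lysosome 6 to 12, mesenchymal 5 to 7, RNA 841 to 2851 and interaction 2 to 4. With no filter on low counts, cholesterol had 14, antigen presentation 11 and cytoskeleton 28 calls, and DESeq2 called 8 interactions; the cause was not tested.

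With the replicate number as a block, footprint calls were 2317, RNA calls 4504 and interaction calls 6. Deviations of libraries with the same number in the 2 genotypes had correlations of 0.041, 0.098 and 0.223 in footprints and 0.086, 0.103 and 0.1 in RNA. Pairs with different numbers lay between -0.149 and 0.063 in footprints and between -0.084 and -0.018 in RNA. The main fit did not pair libraries by number, though a pairing remains possible. In RNA each library correlated best with its own number, and in footprints wt/wt library 1 and Nterm/Nterm library 1 did not.

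The 155 called genes followed here were named by rule, apart from a few chosen after their values were seen. Of these 155, 102 kept their call under every alternative other than leaving out 2 libraries. The call was lost by 53 without at least 1 library and by 11 in another alternative, and 0 reversed. Of uncalled genes, BMS1 ranged from -0.02 to 0.06 without 1 library and PSMD1 from -0.03 to 0.05, both below 0 without wt/wt library 2, BMS1 also without Nterm/Nterm library 3 at -0.02, and they stood at -0.05 and -0.04 without both libraries. Depth limits transcripts below 10.5 CPM most, with a median SE of 0.19.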

Other observations

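Genes of other kinds were also among the largest changes. Of the 20 largest decreases, SULT1C4, a sulfotransferase, stood at -1.32, WDR72 at -1.12, PABIR2 at -1.08 and the lipase gene CEL at -1.07. Of the 20 largest increases, BRINP2 stood at 0.80, FAM13B at 0.78, the copine gene CPNE8 at 0.72, and ARL10 and MAMLD1 at 0.59. Of the 1800 called transcripts, 409 had no symbol in the sources used here and are not described.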
